A study of Mus musculus with 7 samples.

Results

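The genes described here are 34 genes of the ATF4 stress response and the unfolded protein response, chosen by symbol among the 26130 genes of a bulk RNA-seq count table of mouse lung myeloid cells. They cover 3 stress transcription factors (Atf4, Atf3, Ddit3), 4 feedback and growth inhibitors (Trib3, Chac1, Sesn2, Ppp1r15a), 6 enzymes of amino acid and one-carbon synthesis, 10 cytosolic tRNA synthetases, 4 genes of XBP1 signalling and endoplasmic reticulum (ER) associated degradation, and 7 ER chaperones and folding enzymes. All 34 were in the table, and 33 had enough counts to be tested, in a fit of 13665 genes. Chac1, which encodes a glutathione-degrading enzyme, was not tested: its 7 libraries held 6, 0, 0, 8, 7, 4 and 9 counts.

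The cells came from lungs of Fth1-mScarlet x Lyz2GFP mice, in which mScarlet reports the ferritin heavy chain gene Fth1 and GFP reports the myeloid gene Lyz2. All 3 groups carried both reporters and were sorted as Lyz2GFP+CD11b+Ly6C+Ly6G- cells from enzyme-digested lung. The untreated group (2 libraries) held cells of low mScarlet from mice without treatment. The 2 LPS groups came from mice that had received 20 µg of E. coli 0111:B4 lipopolysaccharide in 50 µl into the trachea 3 days earlier, and were split into cells of low mScarlet (LPS Fth1-low, 2 libraries) and of high mScarlet (LPS Fth1-high, 3 libraries). Mouse age, sex and the number of mice behind a library were not given in the sources used here, so p-values measure the spread between these libraries, which may in part be technical. Untreated cells of high mScarlet were not analysed here, so treatment and gate change together between the untreated and the LPS Fth1-high group.

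Eukaryotic cells answer amino acid shortage, misfolded ER protein, heme shortage or viral RNA through kinases (GCN2, PERK, HRI and PKR) that phosphorylate the translation factor eIF2α, which slows general protein synthesis while the mRNA of ATF4 is translated more. ATF4 then activates genes of amino acid uptake and synthesis, tRNA charging and, with CHOP (the Ddit3 product), feedback and death genes. The other branches of the unfolded protein response run through IRE1, which splices Xbp1 mRNA, and through ATF6, which is cleaved to a transcription factor; both activate ER chaperone and degradation genes. Much of this control acts on translation, splicing or protein cleavage, which gene-level mRNA counts do not measure.

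Library totals ran from 10459703 to 27997007 counts in 6 libraries, while LPS Fth1-low replicate 1 held 637787 counts, with 12292 genes detected against 15215 to 16893 in the others. A gene with 3 counts there stands at 5.02 CPM (counts scaled to library totals, after TMM normalization), against 0.106 to 0.280 CPM elsewhere, and values for rare transcripts in that library carry large counting errors. Across all genes the 2 LPS Fth1-low libraries were less alike than the other replicate pairs, with a Pearson r of 0.863 on log2 CPM against 0.960 to 0.980. LPS Fth1-low replicate 1 also stood apart in Lars2 reads. With Lars2, 17 mitochondrial tRNA synthetase genes summed to 16164 CPM there and 685 to 3727 CPM elsewhere. Without it, the sums were 156 CPM there and 178 to 230 CPM elsewhere. The source of these reads, and their part in the values of that library, was not tested. The gate gene matched the labels: Fth1 stood at 1785 and 1671 CPM (untreated), 2967 and 4823 CPM (LPS Fth1-low) and 13222, 20990.2 and 20464 CPM (LPS Fth1-high), a log2 difference of 2.22 ± 0.35 between the LPS groups (SE, adjusted p = 0.0047). In bulk libraries, fewer cells of a kind and less RNA per cell cannot be told apart.

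Markers of the sorted cells and of other cells moved with the groups. Summed monocyte and macrophage markers, mostly Lyz2, came to 12329 to 18690 CPM in every library, but against untreated cells 4 of the 8 rose in LPS Fth1-high cells and 1, Ccr2, fell (1 to 5 rose and 1 fell with any 1 library left out; it was 1 that rose without untreated replicate 1). Neutrophil markers, mostly Csf3r, summed to 409 to 446 CPM (untreated), 661 to 692 CPM (LPS Fth1-low) and 373 to 407 CPM (LPS Fth1-high). Of the 10, Ly6g had fewer than 3 counts in every library and 7 were tested, of which 6 had differences below 0 in LPS Fth1-high against LPS Fth1-low cells, 2 of them called lower (1 without LPS Fth1-high replicate 2 and 0 without LPS Fth1-low replicate 2). T and NK cell markers summed to 20.7 to 43.9, 24.9 to 31.8 and 4.996 to 12.4 CPM in the same order of groups, and all 8 differences of LPS Fth1-high from untreated cells were below 0, 2 of them called lower (0 without untreated replicate 1 or LPS Fth1-high replicate 2, 1 without LPS Fth1-low replicate 1). Dendritic cell markers, mostly Bst2, summed to 207 to 227, 184 to 186 and 205 to 357 CPM; of 8, Flt3 and Cd209a fell and Bst2 rose in LPS Fth1-high against untreated cells, and the counts of 2 lower and 1 higher were the same with any 1 library left out. For these counts, 4.57% of all tested genes were called lower in LPS Fth1-high against LPS Fth1-low cells. Against untreated cells 12.4% were called higher and 11.9% lower. The single markers are named after their values were seen, and the part of such markers in the differences below was not tested.

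Promoters of many of these genes carry short elements by which the pathway is known. The C/EBP-ATF response element (CARE), bound by ATF4 with C/EBP partners, was searched as TGATGNAA on both strands, in windows from 250 bases before to 50 bases after the RefSeq start site (RefSeq sequence, build GRCm38.p6). A window was found for 30 of the 34 genes (not for Hyou1, Mars, Nars and Wars). The letters occurred in windows of 10 of the 30 genes (33.3%), against 4.51% of all 27025 genes with a window and 2.83% of the 10407 tested genes with a window. The matched sites of 9 of the 10 genes are printed since this element is the one by which ATF4 targets are known. Each line gives the gene, a distance and the site 5′ to 3′ in the orientation of the motif, with the motif in capitals and 10 flanking bases on each side. The distance, in bases from the start site, is that of the motif base that comes first on the strand of the gene. For a match on the other strand, that base is the last of the motif as printed. Only the Asns and Yars matches lie on the strand of the gene.
Asns, 23 before: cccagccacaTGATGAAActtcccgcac
Atf3, 110 before: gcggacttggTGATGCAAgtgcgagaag
Chac1, 193 before: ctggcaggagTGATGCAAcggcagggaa
Gars, 30 before: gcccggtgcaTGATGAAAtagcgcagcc
Herpud1, 112 before: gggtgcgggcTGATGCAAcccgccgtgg
Iars, 7 after: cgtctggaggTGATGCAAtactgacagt
Tars, 15 before: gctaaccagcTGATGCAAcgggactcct
Trib3, 14 after: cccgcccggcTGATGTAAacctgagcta
Yars, 3 after: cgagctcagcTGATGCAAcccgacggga

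The ER stress response element (ERSE), through which ATF6 and NF-Y are known to act on chaperone genes, was searched as CCAAT and CCACG separated by 9 bases, on both strands. It occurred in windows of 5 of the 30 genes (16.7%), all of them chaperone genes. This compares with 0.137% of all 27025 genes with a window and 0.173% of the tested genes with a window. Other forms of the element were not searched, so a gene without a match may still carry one of them. The matches are shown in the same way, with both parts of the element in capitals, because this element is the one by which the chaperone genes are known. Hsp90b1 carries 2 copies. Its match 107 before and the Calr match lie on the strand opposite to the gene.
Calr, 162 before: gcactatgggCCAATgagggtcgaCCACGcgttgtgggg
Canx, 145 before: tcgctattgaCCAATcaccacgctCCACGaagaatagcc
Hsp90b1, 107 before: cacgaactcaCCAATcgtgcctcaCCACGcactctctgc
Hsp90b1, 212 before: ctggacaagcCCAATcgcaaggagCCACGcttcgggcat
Hspa5, 65 before: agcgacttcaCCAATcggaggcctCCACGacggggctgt
Pdia6, 98 before: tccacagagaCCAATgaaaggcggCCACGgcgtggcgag

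The element UPRE, searched as TGACGTGG, was in no window of the 30 genes and in 1.04% of the tested genes with a window. No match of one element overlapped a match of another. A match describes letters in this window and no binding was measured here.

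**Figure D1:**
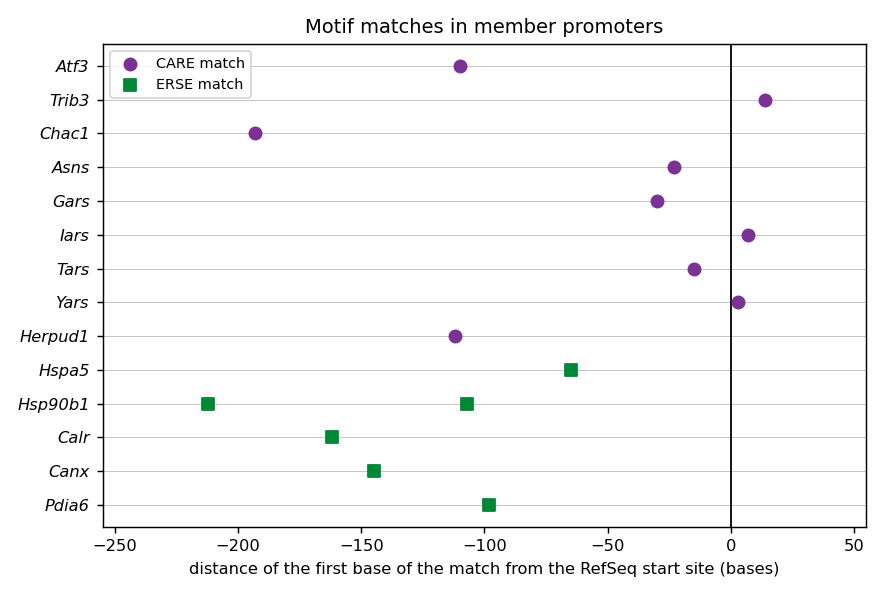
Position of each printed CARE match (circles) and ERSE match (squares) by gene. It is the distance in bases of the match's first base on the strand of the gene from the RefSeq start site at 0 (vertical line). The 9 CARE matches shown lie between 193 bases before and 14 bases after the start, and the 6 ERSE matches between 212 and 65 bases before it.

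Whole windows are printed for Herpud1 and Asns, the genes among these sites with the smallest adjusted p-values in any comparison, of which the first fell and the second rose. All matches of the 3 elements, in the forms searched, are in capitals, on the strand of the gene.
Herpud1, chr8:94386179-94386478, plus strand: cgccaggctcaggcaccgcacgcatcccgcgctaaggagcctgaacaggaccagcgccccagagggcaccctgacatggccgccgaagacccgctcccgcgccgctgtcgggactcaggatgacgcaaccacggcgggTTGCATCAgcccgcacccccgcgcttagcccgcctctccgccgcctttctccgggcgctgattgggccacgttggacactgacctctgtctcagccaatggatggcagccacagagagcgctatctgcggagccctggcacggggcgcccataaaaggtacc
Asns, chr6:7693160-7693459, minus strand: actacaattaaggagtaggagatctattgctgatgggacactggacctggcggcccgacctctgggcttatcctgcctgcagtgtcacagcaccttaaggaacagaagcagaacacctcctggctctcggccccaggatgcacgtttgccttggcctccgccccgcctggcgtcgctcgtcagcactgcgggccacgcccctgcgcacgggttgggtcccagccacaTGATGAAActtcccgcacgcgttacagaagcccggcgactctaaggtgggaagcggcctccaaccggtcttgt
Of the 10 genes with a CARE match, 3 rose in LPS Fth1-high against untreated cells (Trib3, Asns, Aars), 2 fell (Atf3, Herpud1), 4 were not called (Gars, Iars, Tars, Yars) and Chac1 was not tested. Among all tested genes 12.4% were called higher and 11.9% lower in this comparison. Of the 5 with an ERSE match, Calr rose and the other 4 were not called. The genes with a CARE match thus did not share 1 direction.

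Between LPS Fth1-high and untreated cells, 8 of the 33 tested genes rose and 5 fell at an adjusted p under 0.05 (edgeR quasi-likelihood test, Benjamini-Hochberg adjustment over all 13665 genes, used for every adjusted p unless another tool is named). Among all tested genes 24.3% were called in this comparison, 12.4% higher and 11.9% lower. The same shares stand beside the count of every other gene list in this comparison. In the fit of all libraries, the share of the 33 genes that rose is thus above that background and the share that fell is near it. Counts from fits that leave out a library, here and below, are not set beside the shares of all genes called in those fits. Asparagine synthetase (Asns), mitochondrial serine hydroxymethyltransferase (Shmt2), 3 tRNA synthetases (Aars, Wars, Eprs), the ER proteins Calr and Pdia4 and the pseudokinase Trib3 were higher. Atf4, Atf3, the serine enzyme Psat1, Xbp1 and the ER degradation gene Herpud1 were lower. The median log2 difference of the 33 genes was 0.30, against 0.03 for all tested genes. In 17 of the 33 every LPS Fth1-high library lay above both untreated libraries and in 7 every one lay below, where 30.3% and 27.8% of all tested genes did so. Leaving out 1 library at a time gave 4 to 11 genes that rose and 2 to 7 that fell: without untreated replicate 1 the counts were 5 and 2, without untreated replicate 2 they were 4 and 2, and without LPS Fth1-high replicate 2 or 3 the lower count was 3.

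Between the 2 LPS groups, 1 of the 33 genes rose in the Fth1-high cells (Pdia4) and 1 fell (Psat1), against 3.68% and 4.57% of all tested genes (8.25% in all), so the share called is near that background. The median log2 difference was 0.32, against 0.04 for all genes, and 12 genes lay above and 5 below without overlap between the groups, shares that reached 24.2% and 17.1% over all genes. Both calls are sensitive to single libraries. Without the shallow LPS Fth1-low replicate 1 no gene rose and 3 fell (Psat1, Xbp1, Herpud1), and without LPS Fth1-low replicate 2 the numbers were 6 and 0, the 6 being Pdia4, Aars, Eprs, Dnajb9, Calr and Pdia6. Each of these fits leaves 1 LPS Fth1-low library, the shallow one in the second case, whose spread is assumed to be that of the other groups; the same holds wherever an LPS Fth1-low or untreated library is left out below. No gene rose without either untreated library or without LPS Fth1-high replicate 2 or 3, and none fell without LPS Fth1-high replicate 3.

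Within Fth1-low cells, LPS against untreated, none of the 33 genes was called by edgeR, against 3.62% of all genes called, 2.99% higher and 0.629% lower. At an unadjusted p under 0.05, 4 were higher and 3 lower, against 1067 and 762 of all 13665 tested genes. The DESeq2 Wald test called 1 higher (Wars, log2 difference 0.90, adjusted p = 0.023) and 1 lower (Atf4, -0.72, adjusted p = 0.027). The median difference was 0.05, against -0.05 for all genes, and 5 genes lay above and 5 below without overlap (16.3% and 23.2% of all genes). The 3 comparisons share libraries pairwise, so their values are set side by side and not counted as separate evidence.

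**Figure D2:**
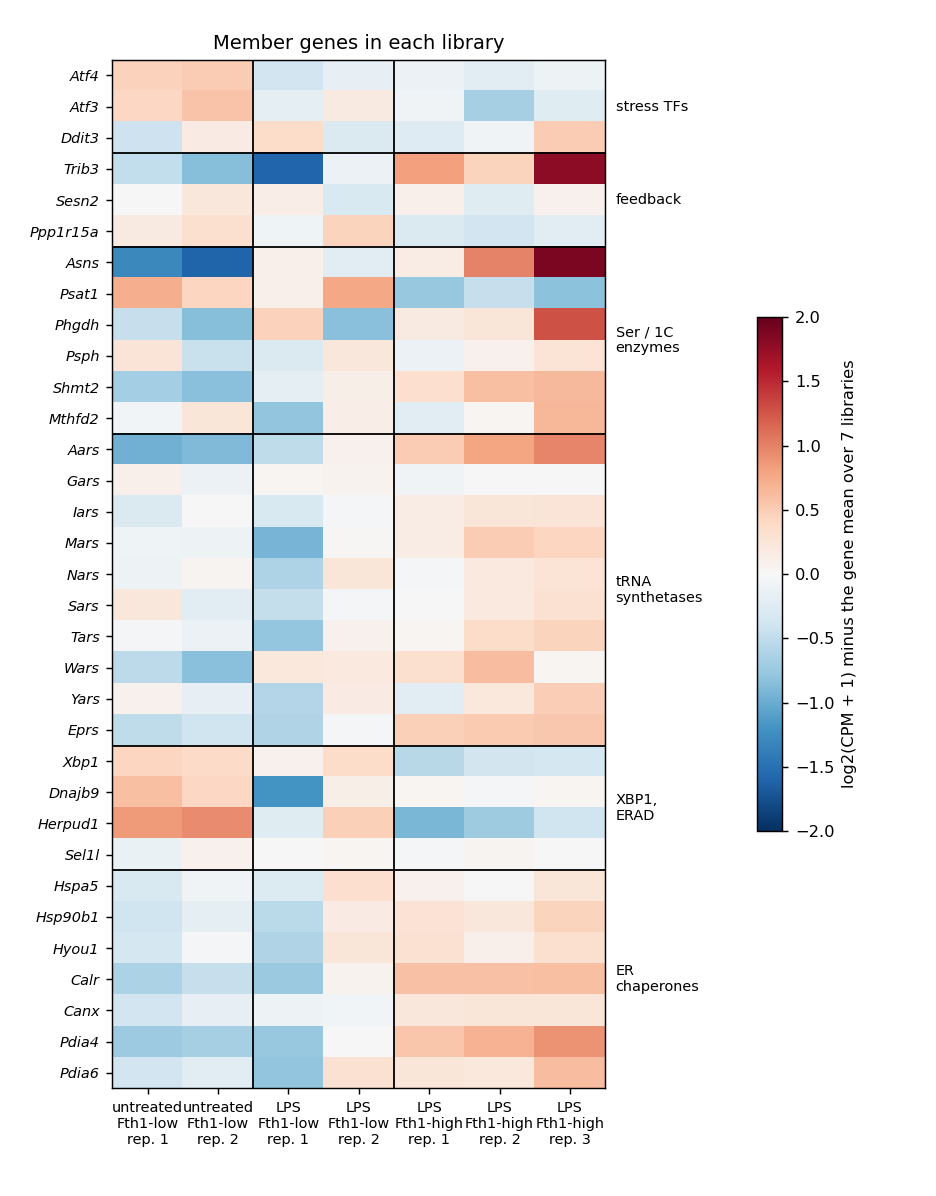
Each row is 1 of the member genes and each column 1 of the 7 libraries; colour gives log2(CPM + 1) minus the gene's mean over the libraries. Asns, Aars, Shmt2 and Pdia4 are high in the 3 LPS Fth1-high libraries, and Psat1, Herpud1 and Xbp1 are low in them.

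None of the 3 stress transcription factors rose at the mRNA level in any comparison, and 2 of them fell in LPS Fth1-high against untreated cells. Of all tested genes, 11.9% fell in that comparison. Atf4 (chr15:80255184-80257541, plus strand, GRCm38 as are all positions here), the central factor of the response, stood at 228 and 236 CPM (untreated), 127 and 148 CPM (LPS Fth1-low) and 153, 143 and 155 CPM (LPS Fth1-high). Every LPS library was under both untreated libraries, and the 2 LPS groups overlapped. The difference from untreated cells was -0.74 ± 0.20 (SE, adjusted p = 0.097) in LPS Fth1-low cells and -0.63 ± 0.18 (adjusted p = 0.029) in LPS Fth1-high cells. The latter call was lost without either untreated library and without any 1 of the 3 LPS Fth1-high libraries (log2 difference -0.65 to -0.51 and adjusted p 0.0066 to 0.16 over 14 alternatives), with the same direction throughout.

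Atf3 (chr1:191170296-191218039, minus strand), a rapidly induced factor of the same family and an ATF4 target, was the more abundant of the 2 at 883 and 979 CPM (untreated), 577 and 752 CPM (LPS Fth1-low) and 629, 419 and 556 CPM (LPS Fth1-high). It too lay lower in all LPS libraries than in untreated ones, by -0.80 ± 0.24 in LPS Fth1-high cells (adjusted p = 0.036) and -0.48 ± 0.27 in LPS Fth1-low cells (adjusted p = 0.51). The first call was lost without either untreated library or without LPS Fth1-high replicate 2 or 3 (adjusted p 0.0032 to 0.2 over 14 alternatives). Atf3 is also an immediate early gene of the kind that tissue digestion induces, and 5 of 13 other such genes fell and 1 rose between the same groups, led by Nr4a1 (-2.41, adjusted p = 6.1e-05), Ier2 (-1.69, 0.00028) and, upward, Ier3 (3.41, 2.9e-05); without untreated replicate 2, 3 fell. The summed immediate early genes ran from 18060.1 to 22455 CPM (untreated), 16037 to 18254 CPM (LPS Fth1-low) and 16712 to 17174 CPM (LPS Fth1-high). Their part in the Atf3 difference was not tested.

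Ddit3, which encodes the death-associated factor CHOP, was low at 9.32 and 14.3 CPM (untreated), 16.7 and 10.2 CPM (LPS Fth1-low) and 10.5, 12.02 and 18.5 CPM (LPS Fth1-high). Its groups overlapped in every comparison and none was called. Ddit3 and Mars lie on opposite strands and share exon sequence at their ends, so counts between them are uncertain if the counting ignored strand, which was not given in the sources used here.

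Among the feedback genes, Trib3 rose and the phosphatase subunit gene Ppp1r15a did not pass the test in any comparison. Trib3 (chr2:152337422-152344032, minus strand), a pseudokinase induced by ATF4 and CHOP that dampens them in turn, had 27 and 7 counts (untreated), 0 and 34 counts (LPS Fth1-low) and 65, 76 and 265 counts (LPS Fth1-high). In CPM these were 1.12 and 0.652, 0 and 1.75, and 4.31, 3.09 and 9.36. All 3 LPS Fth1-high libraries were above the other 4, and replicate 3 was the highest. The difference from untreated cells was 2.61 ± 0.69 (adjusted p = 0.023), and it was not called without either untreated library or without LPS Fth1-high replicate 3 (adjusted p 0.0079 to 0.14 over 12 alternatives). Against LPS Fth1-low cells it was 1.92 ± 0.76 (adjusted p = 0.17); the count of 0 in the shallow library allows up to 5.02 CPM there, which is within the LPS Fth1-high range.

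Ppp1r15a (GADD34), which brings the phosphatase PP1 to eIF2α and so restores translation, stood at 365 and 403 CPM (untreated), 304 and 439.7 CPM (LPS Fth1-low) and 264, 248 and 276 CPM (LPS Fth1-high). The LPS Fth1-high libraries lay under the other 4, with a difference of -0.55 ± 0.21 from untreated cells (adjusted p = 0.089) and -0.52 ± 0.21 from LPS Fth1-low cells (adjusted p = 0.19). It was called lower than in untreated cells when either LPS Fth1-low library was left out (adjusted p 0.035 and 0.029). Sesn2, a stress-induced inhibitor of mTORC1, ranged from 22.1 to 32.2 CPM over the 7 libraries, and its groups overlapped.

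The 6 enzymes of amino acid and one-carbon synthesis did not move together: in LPS Fth1-high against untreated cells, 2 rose, 1 fell and 3 were not called. Among all tested genes 12.4% rose and 11.9% fell there. Asns (chr6:7675169-7693254, minus strand), which makes asparagine and is a standard ATF4 target, had 31 and 9 counts (untreated), 3 and 74 counts (LPS Fth1-low) and 78, 248 and 555 counts (LPS Fth1-high), or 1.29 and 0.839, 5.02 and 3.80, and 5.17, 10.1 and 19.6 CPM. Both untreated libraries were lowest, both LPS Fth1-low libraries came next, and all 3 LPS Fth1-high libraries were highest and spread widely among themselves (11.6 ± 7.34 CPM, SD, n = 3). The shallow library's place in that order rests on 3 counts. It rose 10.6-fold against untreated cells (log2 difference 3.41 ± 0.60, adjusted p = 0.0029), the largest difference among the 33 genes, and the call held in all 12 alternatives that tested it (adjusted p 1.2e-06 to 0.035). The steps from untreated to LPS Fth1-low (1.89 ± 0.67, adjusted p = 0.23) and on to LPS Fth1-high (1.52 ± 0.62, adjusted p = 0.19) were not called.

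Shmt2 (chr10:127517123-127522444, minus strand), which feeds one-carbon units from serine into mitochondrial folate, stood at 9.28 and 8.20 CPM (untreated), 13.4 and 16.9 CPM (LPS Fth1-low) and 19.8, 24.01 and 24.7 CPM (LPS Fth1-high). The 3 groups followed each other without overlap in that order. Its difference of 1.38 ± 0.22 between the outer groups was called (adjusted p = 0.0016), and neither step between neighbours was (LPS Fth1-low against untreated 0.86 ± 0.25, adjusted p = 0.13; LPS Fth1-high against LPS Fth1-low 0.52 ± 0.23, adjusted p = 0.23). The call between the outer groups held in 13 of 14 alternatives and was lost at equal depth (adjusted p = 0.059). An exon of Shmt2 overlaps Ndufa4l2 on the opposite strand.

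Psat1 (chr19:15904678-15947337, minus strand), the aminotransferase of the middle step of serine synthesis, went the other way. It stood at 21.2 and 17.1 CPM (untreated), 13.4 and 21.8 CPM (LPS Fth1-low) and 6.90, 8.73 and 6.61 CPM (LPS Fth1-high). All 3 LPS Fth1-high libraries were under the other 4, while untreated and LPS Fth1-low libraries overlapped. It fell against LPS Fth1-low cells (-1.36 ± 0.27, adjusted p = 0.015) and against untreated cells (-1.37 ± 0.26, adjusted p = 0.0038). The second call held in all 14 alternatives. The first did not hold when LPS Fth1-low replicate 2 was left out (-0.84, adjusted p = 0.34) or when LPS Fth1-high replicate 3 was (-1.28, adjusted p = 0.065).

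The enzymes on either side of Psat1 in serine synthesis differed from it. Phgdh, the first enzyme, was low at 1.29 and 0.745 CPM (untreated), 3.34 and 0.771 CPM (LPS Fth1-low) and 2.59, 2.72 and 6.64 CPM (LPS Fth1-high), with 2 counts in the shallow library, LPS Fth1-high libraries above both untreated ones and a difference of 1.94 ± 0.70 (adjusted p = 0.074). It was called in that comparison without LPS Fth1-low replicate 2 (adjusted p = 0.049). Psph, the last enzyme, ranged from 2.89 to 5.44 CPM with overlapping groups. Mthfd2, a mitochondrial folate enzyme and ATF4 target, ranged from 23.4 to 65.4 CPM, also with overlap.

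Of the 10 cytosolic tRNA synthetases, which charge tRNAs with their amino acids, 3 rose in LPS Fth1-high against untreated cells and none fell. The differences of 9 of the 10 were above 0, with a median of 0.37, and 6 lay above both untreated libraries in every LPS Fth1-high library, where 12.4% of all tested genes were called higher and 30.3% lay above without overlap. Aars, for alanine (chr8:111033144-111057664, plus strand), stood at 34.1 and 35.9 CPM (untreated), 46.8 and 71.5 CPM (LPS Fth1-low) and 95.8, 118 and 133 CPM (LPS Fth1-high). Its 3 groups followed each other without overlap, and the 3.31-fold difference between the outer ones (1.72 ± 0.24, adjusted p = 0.00071) held in all 14 alternatives. Against LPS Fth1-low cells the difference was 0.90 ± 0.24 (adjusted p = 0.052), which missed the threshold narrowly and passed it in 6 alternatives, among them without LPS Fth1-low replicate 2 (1.31, adjusted p = 0.048) and without LPS Fth1-high replicate 1 (1.01, adjusted p = 0.043). An exon of Aars overlaps Exosc6 on the same strand, where reads cannot be assigned to one gene alone.

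Eprs, the joint synthetase for glutamate and proline (chr1:185363044-185428360, plus strand), stood at 56.97 and 61.6 CPM (untreated), 53.5 and 79.6 CPM (LPS Fth1-low) and 114, 117 and 118 CPM (LPS Fth1-high). The LPS Fth1-high libraries were close to each other and above the other 4. The difference was 0.97 ± 0.21 from untreated cells (adjusted p = 0.0074) and 0.75 ± 0.21 from LPS Fth1-low cells (adjusted p = 0.064). The first was not called without untreated replicate 1 or 2 (adjusted p 0.075 and 0.055), and the second was called without LPS Fth1-low replicate 2 (1.13, adjusted p = 0.034).

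Wars, the tryptophan synthetase, which interferon-γ is known to induce (chr12:108860030-108894174, minus strand), showed another pattern. It stood at 75.7 and 60.7 CPM (untreated), 127 and 125 CPM (LPS Fth1-low) and 136, 168 and 112 CPM (LPS Fth1-high). Both LPS groups lay above both untreated libraries and overlapped with each other. The difference from untreated cells was 1.02 ± 0.23 in LPS Fth1-high cells (adjusted p = 0.0096) and 0.88 ± 0.25 in LPS Fth1-low cells (adjusted p = 0.11), and the first was lost without untreated replicate 2 (0.88, adjusted p = 0.099). Of 15 interferon-γ response genes, against untreated cells 11 rose in the Fth1-low and 14 in the Fth1-high cells after LPS and none fell, led by Cxcl10 (4.66, adjusted p = 5.2e-05) and Cxcl9 (6.54, adjusted p = 9.5e-05) in the former; 6 rose there without untreated replicate 1. Their sum was 1244 to 1579 CPM (untreated), 6709 to 7341 CPM (LPS Fth1-low) and 4571 to 6206 CPM (LPS Fth1-high). Their part in the Wars difference was not tested.

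The other 7 synthetases (Gars, Iars, Mars, Nars, Sars, Tars, Yars) were not called in any comparison. Gars stayed between 88.5 and 103 CPM in all 7 libraries. The 10 genes summed to 602 to 635 CPM (untreated), 572 to 775 CPM (LPS Fth1-low) and 812 to 944 CPM (LPS Fth1-high). Of 13 other cytosolic synthetase genes, 1 rose against untreated cells (Rars, 0.92, adjusted p = 0.01) and 1 fell (Vars, -1.08, adjusted p = 0.0013); 6 rose when either LPS Fth1-low library was left out and none without untreated replicate 2. Of 17 mitochondrial synthetase genes, 1 rose (Tars2, 0.98, adjusted p = 0.0069), a call lost without either untreated library and at equal depth.

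Of the 4 genes of XBP1 signalling and ER-associated degradation, 2 fell in LPS Fth1-high against untreated cells and none rose. Among all tested genes 11.9% fell and 12.4% rose there. Xbp1 (chr11:5520659-5525893, plus strand), the factor that IRE1 activates by splicing, stood at 309.8 and 298 CPM (untreated), 244 and 295 CPM (LPS Fth1-low) and 156, 178 and 179 CPM (LPS Fth1-high). All 3 LPS Fth1-high libraries were under the other 4. The difference was -0.83 ± 0.18 from untreated cells (adjusted p = 0.0099) and -0.66 ± 0.19 from LPS Fth1-low cells (adjusted p = 0.064), while LPS Fth1-low and untreated cells differed by -0.17 ± 0.21 (adjusted p = 0.82). The first call was lost without either untreated library (adjusted p 0.072 and 0.064). Spliced and unspliced Xbp1 were not separated in the gene counts.

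Herpud1 (chr8:94386438-94395377, plus strand), an ER membrane protein of the degradation complex and a target of both ATF4 and the other branches, had the largest fall among the 33 genes. It stood at 119 and 127 CPM (untreated), 55.2 and 91.6 CPM (LPS Fth1-low) and 34.3, 39.8 and 49.3 CPM (LPS Fth1-high). The 3 groups followed each other downward without overlap. LPS Fth1-high cells were 2.98-fold under untreated cells (-1.58 ± 0.24, adjusted p = 0.0012), a call that held in all 14 alternatives. The difference from LPS Fth1-low cells was -0.90 ± 0.25 (adjusted p = 0.059) and was called without LPS Fth1-low replicate 1 (-1.17, adjusted p = 0.031).

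Dnajb9 (ERdj4), an XBP1 target that works with BiP and acts back on IRE1, stood at 84.3 and 73.5 CPM (untreated), 23.4 and 60.04 CPM (LPS Fth1-low) and 56.96, 54.6 and 56.8 CPM (LPS Fth1-high). Every LPS library was under both untreated ones, and LPS Fth1-low replicate 1 (14 counts) was lowest. Its differences were not called with all 7 libraries, and leaving out LPS Fth1-low replicate 2 gave calls in all 3 comparisons: -1.77 in LPS Fth1-low against untreated (adjusted p = 0.025), 1.27 between the LPS groups (0.037) and -0.50 in LPS Fth1-high against untreated (0.029). In the first 2 cases the LPS Fth1-low group is then the shallow library alone, with its spread taken from the other groups. Sel1l, the scaffold of the HRD1 degradation complex, stayed between 131 and 153 CPM in all libraries.

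The 7 ER chaperones and folding enzymes all lay higher in every LPS Fth1-high library than in either untreated library, and 2 of them passed the test, where 30.3% of all tested genes lay higher without overlap and 12.4% were called higher. Their median log2 difference was 0.61, and their sum was 2249.5 to 2605 CPM in untreated and 3574 to 4014 CPM in LPS Fth1-high libraries. Pdia4 (chr6:47796141-47813430, minus strand), a protein disulfide isomerase, stood at 60.3 and 62.8 CPM (untreated), 58.5 and 98.9 CPM (LPS Fth1-low) and 147, 163 and 188 CPM (LPS Fth1-high). The 3 LPS Fth1-high libraries were above the other 4. It rose against untreated cells (1.43 ± 0.24, adjusted p = 0.0024; called in all 14 alternatives) and against LPS Fth1-low cells (1.01 ± 0.25, adjusted p = 0.036). The second call was lost when either untreated library, LPS Fth1-low replicate 1, or replicate 2 or 3 of LPS Fth1-high was left out (adjusted p 0.062 to 0.12; 0.72 without LPS Fth1-low replicate 1).

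Calr (chr8:84841850-84846934, minus strand), the calcium-binding lectin chaperone calreticulin, stood at 358 and 401 CPM (untreated), 331 and 585 CPM (LPS Fth1-low) and 830.4, 833 and 838 CPM (LPS Fth1-high). The 3 LPS Fth1-high libraries were within a narrow band (834 ± 4.09 CPM, SD, n = 3), above the other 4. It rose 2.20-fold against untreated cells (1.14 ± 0.26, adjusted p = 0.012), not called without untreated replicate 1 or 2 (adjusted p 0.11 and 0.073). Against LPS Fth1-low cells the difference was 0.85 ± 0.26 (adjusted p = 0.084), and it was called without LPS Fth1-low replicate 2 (1.34, adjusted p = 0.022).

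The other 5 were not called with all libraries. Hspa5 encodes BiP, the chaperone whose release from the sensors starts the response, and stood at 704 and 829.6 CPM (untreated), 719 and 1102 CPM (LPS Fth1-low) and 925, 864 and 1037 CPM (LPS Fth1-high). LPS Fth1-low replicate 2 was the highest library for this gene. Hsp90b1 (GRP94) stood at 512 and 594 CPM (untreated), 465 and 762 CPM (LPS Fth1-low) and 824, 790.2 and 921 CPM (LPS Fth1-high), a difference of 0.61 ± 0.25 from untreated to LPS Fth1-high (adjusted p = 0.11). The membrane lectin chaperone Canx differed by 0.51 ± 0.19 (adjusted p = 0.081) and the disulfide isomerase Pdia6 by 0.66 ± 0.30 (adjusted p = 0.14) in that comparison, and all 3 were called higher without LPS Fth1-low replicate 1 (adjusted p 0.037, 0.048 and 0.039). Hyou1, the ER partner chaperone GRP170, ranged from 91.97 to 177 CPM.

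The 2 LPS Fth1-low libraries differed from each other in these genes. All 7 chaperone genes, and 28 of the 33 tested genes (84.8%), had a higher CPM in replicate 2 than in the shallow replicate 1, where 59.9% of all tested genes did. Summed chaperone expression was 2196 CPM in replicate 1, just under the untreated range, and 3406 CPM in replicate 2, just under the LPS Fth1-high range. Alveolar macrophage markers summed to 3309 and 5919.5 CPM in the same libraries, 1743 to 1942 CPM in untreated and 484 to 1891 CPM in LPS Fth1-high libraries. Most of that sum was Chil3, at 1409 and 1427 CPM (untreated), 3186 and 5803 CPM (LPS Fth1-low) and 470.4, 1876 and 740.2 CPM (LPS Fth1-high), and the list did not move together: in LPS Fth1-low against untreated cells 3 of the 7 differences were above 0 and 4 below, with a median of -0.90, none called higher and 1 lower (Fabp4, not called without any 1 untreated or LPS Fth1-low library). In that comparison 2.99% of all tested genes were called higher and 0.629% lower. The part of the alveolar macrophage markers and of depth in the chaperone differences was not tested.

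**Figure D3:**
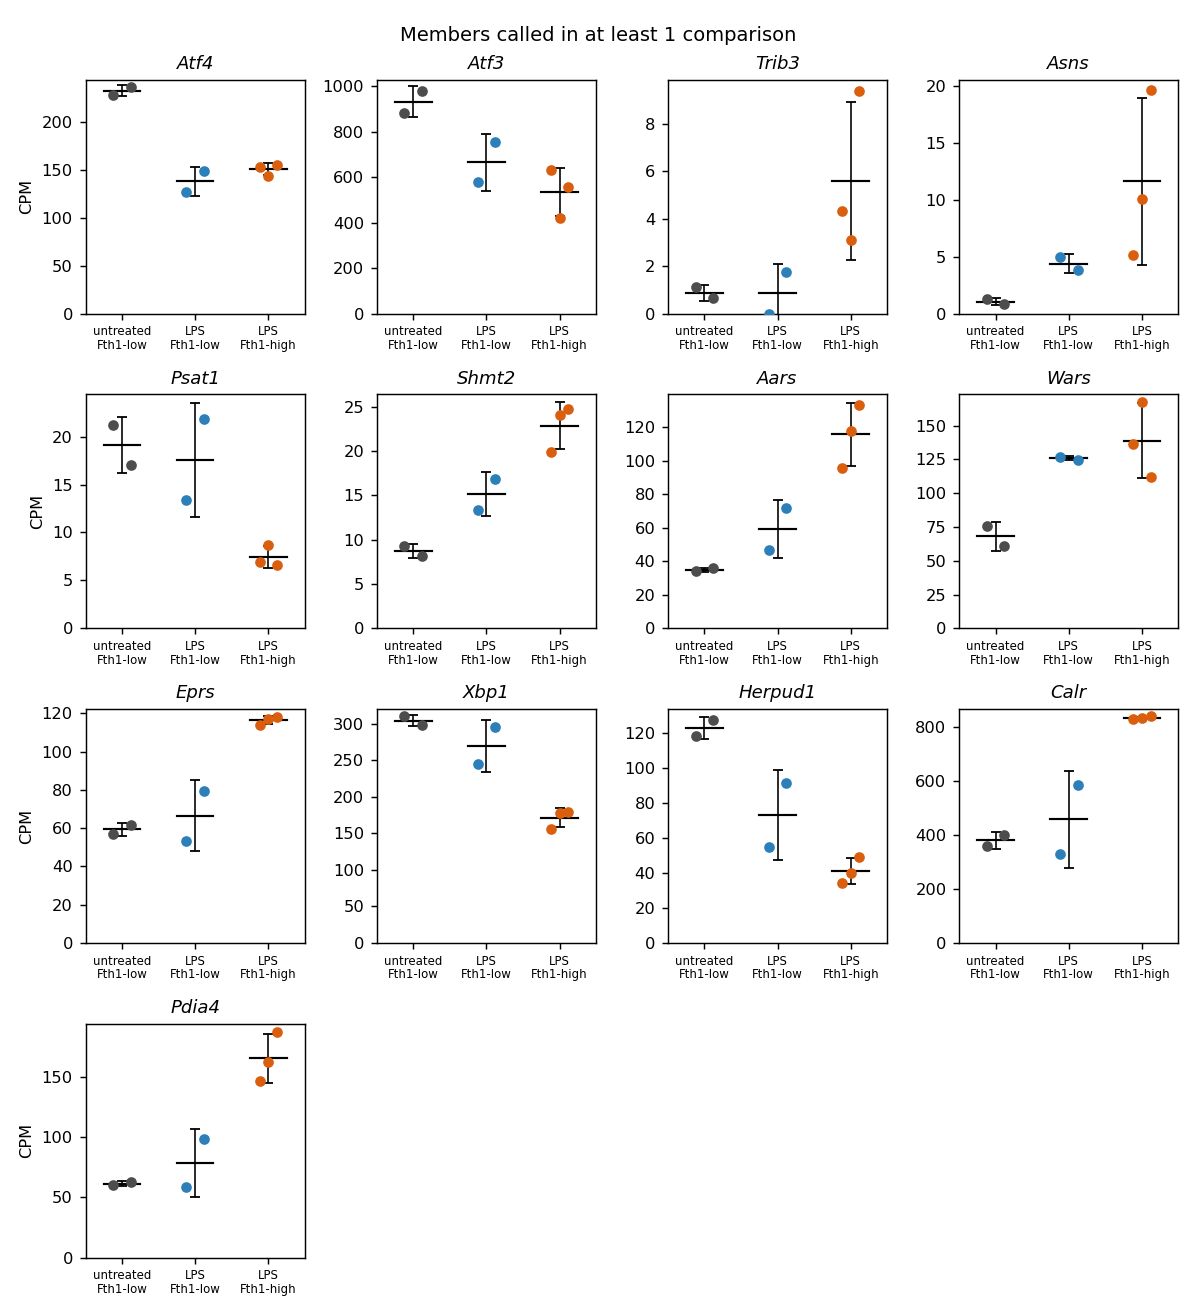
CPM of the 13 genes called in at least 1 comparison, by group; points are libraries, the horizontal line is the group mean and the bar its SD (n = 2, 2 and 3), with axes starting at 0. Asns, Shmt2, Aars and Herpud1 step through the 3 groups without overlap, while Psat1 is low in the 3 LPS Fth1-high libraries and overlaps between the other groups.

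**Figure D4:**
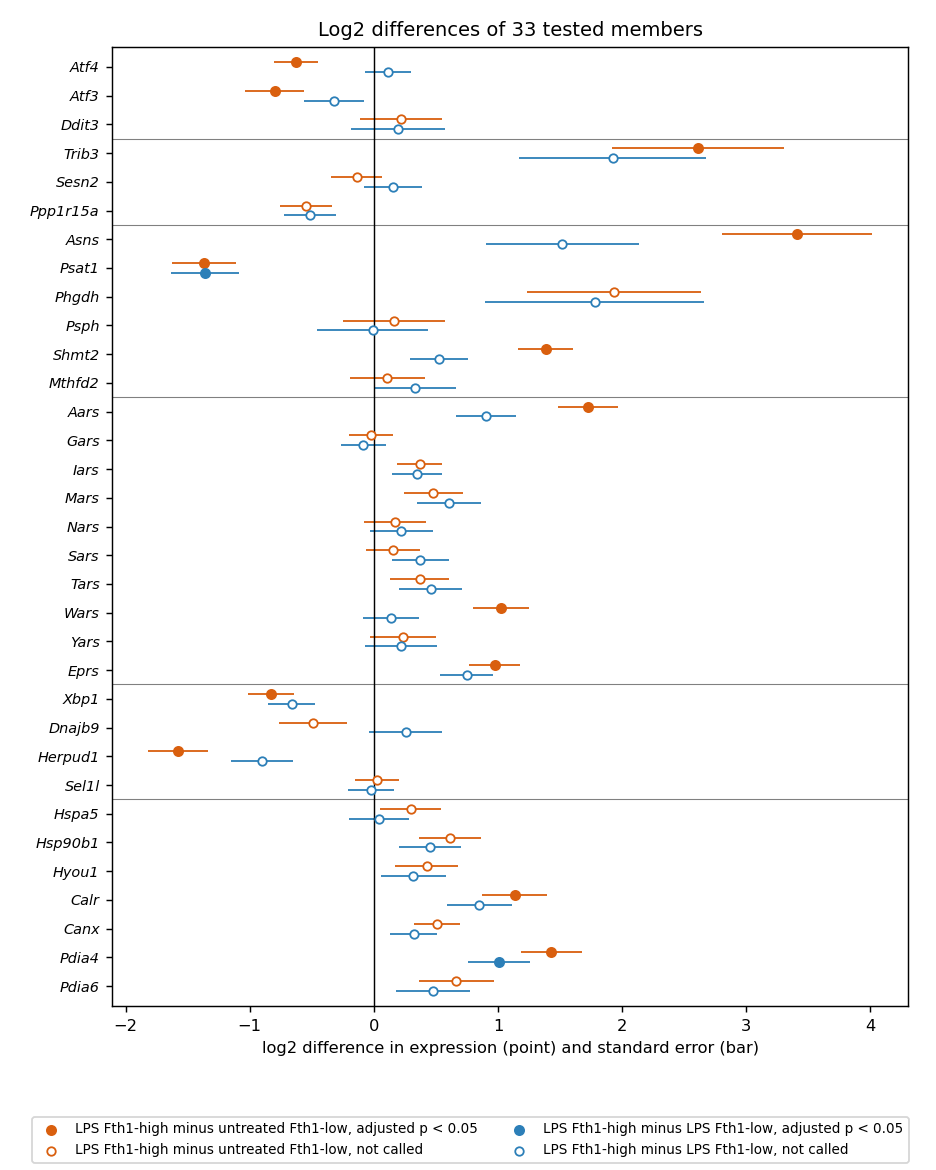
Log2 difference (point) and SE (bar) of the 33 tested genes for LPS Fth1-high minus untreated (orange) and minus LPS Fth1-low (blue); filled points are called at an adjusted p under 0.05. The ER chaperones at the bottom all lie above 0 in both, and Xbp1 and Herpud1 lie below 0 in both.

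Secretory cells such as plasma cells express Xbp1 and ER chaperones strongly, so their markers were read beside these genes. Of 9 B and plasma cell markers the plasma cell gene Tnfrsf17 had fewer than 3 counts in every library, Jchain was at 0.447 to 10.0 CPM and Mzb1 at 0.0812 to 3.34 CPM. The list summed to 70.9 to 108 CPM (untreated), 103 to 202 CPM (LPS Fth1-low) and 207 to 257 CPM (LPS Fth1-high), mostly from Prdm1 and Sdc1, which myeloid cells can also express. Of the 8 tested, 2 rose and 1 fell in LPS Fth1-high against untreated cells (12.4% and 11.9% of all tested genes). Against LPS Fth1-low cells 1 rose and 0 fell (3.68% and 4.57% of all tested genes). The part of B and plasma cell markers in the Xbp1 and chaperone differences was not tested. Epithelial markers reached 822 CPM in untreated replicate 1, mainly Sftpc, and 5.87 to 136 CPM elsewhere. Proliferation genes, 3 of 13 of which rose against untreated cells with none lower (Mki67 3.24, adjusted p = 9.9e-05), summed to 148 to 152 CPM (untreated), 175 to 227 CPM (LPS Fth1-low) and 243 to 338 CPM (LPS Fth1-high) (1 rose without untreated replicate 2, 5 without either LPS Fth1-low library). Their part in the differences of Asns, Shmt2 and the synthetases was not tested.

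The sensors of the response were read from a list apart from the 34 genes. Of 11 IRE1 and ATF6 sensor and signalling genes, 3 fell against untreated cells and none rose: Atf6, Ern1 and Creb3. Among all tested genes 11.9% were called lower and 12.4% higher there. Atf6 stood at 236 and 348 CPM (untreated), 229 and 228 CPM (LPS Fth1-low) and 112, 110.4 and 93.5 CPM (LPS Fth1-high), and Ern1, which encodes IRE1α, at 60.8 and 79.9 CPM (untreated), 68.6 and 42.9 CPM (LPS Fth1-low) and 33.3, 27.99 and 23.04 CPM (LPS Fth1-high). Both were lowest in the LPS Fth1-high libraries, without overlap with the other 4. Atf6 fell against both other groups (-1.47 ± 0.21, adjusted p = 0.00093, against untreated; -1.12 ± 0.22, adjusted p = 0.013, against LPS Fth1-low), and Ern1 against untreated cells (-1.32 ± 0.24, adjusted p = 0.0036). Atf6 against LPS Fth1-low was not called without LPS Fth1-low replicate 2, nor without LPS Fth1-high replicate 3 (adjusted p 0.058 to 0.061). Xbp1, Ern1 and Atf6 mRNA were thus lower in the same libraries in which Pdia4 and Calr mRNA were higher. The count of 0 that rose became 1 without either LPS Fth1-low library. Creb3, an ER membrane factor related to ATF6, differed by -0.70 ± 0.19 (adjusted p = 0.027), a call lost without either untreated or any 1 LPS Fth1-high library.

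Of 19 genes for eIF2α kinases, eIF2 subunits, its phosphatase and eIF2B, 3 rose and 2 fell against untreated cells. These counts are near the shares over all tested genes, 12.4% higher and 11.9% lower. The ER-stress kinase PERK (Eif2ak3) stood at 76.1 and 82.8 CPM (untreated), 66.9 and 58.2 CPM (LPS Fth1-low) and 44.2, 40.5 and 39.8 CPM (LPS Fth1-high) and fell (-0.94 ± 0.17, adjusted p = 0.0034). The Eif2ak3 call was lost at equal depth (adjusted p = 0.082). The amino acid sensing kinase GCN2 (Eif2ak4) stood at 18.8 and 24.1 CPM (untreated), 30.1 and 21.1 CPM (LPS Fth1-low) and 42.7, 42.8 and 44.7 CPM (LPS Fth1-high) and rose (1.02 ± 0.21, adjusted p = 0.0059), which was lost without untreated replicate 1 (adjusted p = 0.079). The mRNAs of these 2 kinases therefore went opposite ways between the same libraries. Ppp1r15b, the constitutive phosphatase subunit, fell (-0.81 ± 0.20, adjusted p = 0.016; lost without untreated replicate 2 or without replicate 2 or 3 of LPS Fth1-high). The count of 3 higher was 0 and 1 without untreated replicate 1 and 2, and 1 without LPS Fth1-high replicate 2 or 3; in the last 3 of these cases 1 fell.

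Of 27 other tested targets of ATF4 and CHOP, 5 rose and 3 fell against untreated cells, and 4 rose and 2 fell against LPS Fth1-low cells. Among all tested genes 12.4% rose and 11.9% fell in the first comparison, and 3.68% and 4.57% in the second. The cystine transporter gene Slc7a11 stood at 3.12 and 3.82 CPM (untreated), 56.9 and 62.7 CPM (LPS Fth1-low) and 109, 248 and 160.5 CPM (LPS Fth1-high), with all 3 groups apart. It rose 17.6-fold in LPS Fth1-low cells (4.14 ± 0.41, adjusted p = 0.00055) and 50.2-fold in LPS Fth1-high cells (5.65 ± 0.42, adjusted p = 1.8e-05), more than any of the 34 genes; it is also a known NRF2 target. Its partner subunit Slc3a2 stood at 136 and 129.99 CPM (untreated), 182 and 259 CPM (LPS Fth1-low) and 397, 472 and 474 CPM (LPS Fth1-high) and rose against untreated (1.75, adjusted p = 0.00047) and LPS Fth1-low cells (1.00, adjusted p = 0.023).

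The ER oxidase gene Ero1l, a CHOP target that hypoxia also induces, rose against LPS Fth1-low cells (1.26 ± 0.28, adjusted p = 0.025), from 23.4 and 51.7 to 109, 102 and 89.5 CPM. Ndrg1, a stress and hypoxia gene, fell against both: it stood at 92.6 ± 6.21 CPM in untreated (SD, n = 2), 115 and 117 CPM in LPS Fth1-low and 34.7, 23.7 and 28.1 CPM in LPS Fth1-high cells (-2.01, adjusted p = 0.0006, against LPS Fth1-low, and -1.69, adjusted p = 0.00031, against untreated). These targets, like the 34 genes, thus included both directions. Against LPS Fth1-low cells the Slc3a2 call was lost without untreated replicate 2, without LPS Fth1-low replicate 1 and without LPS Fth1-high replicate 2 or 3, and the Ero1l call without untreated replicate 2 or LPS Fth1-high replicate 1 or 2; the count of 4 higher was 0 to 3 when any 1 library was left out and the count of 2 lower was 1. Against untreated cells 3 rose without untreated replicate 2 and 9 without either LPS Fth1-low library.

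**Figure D5:**
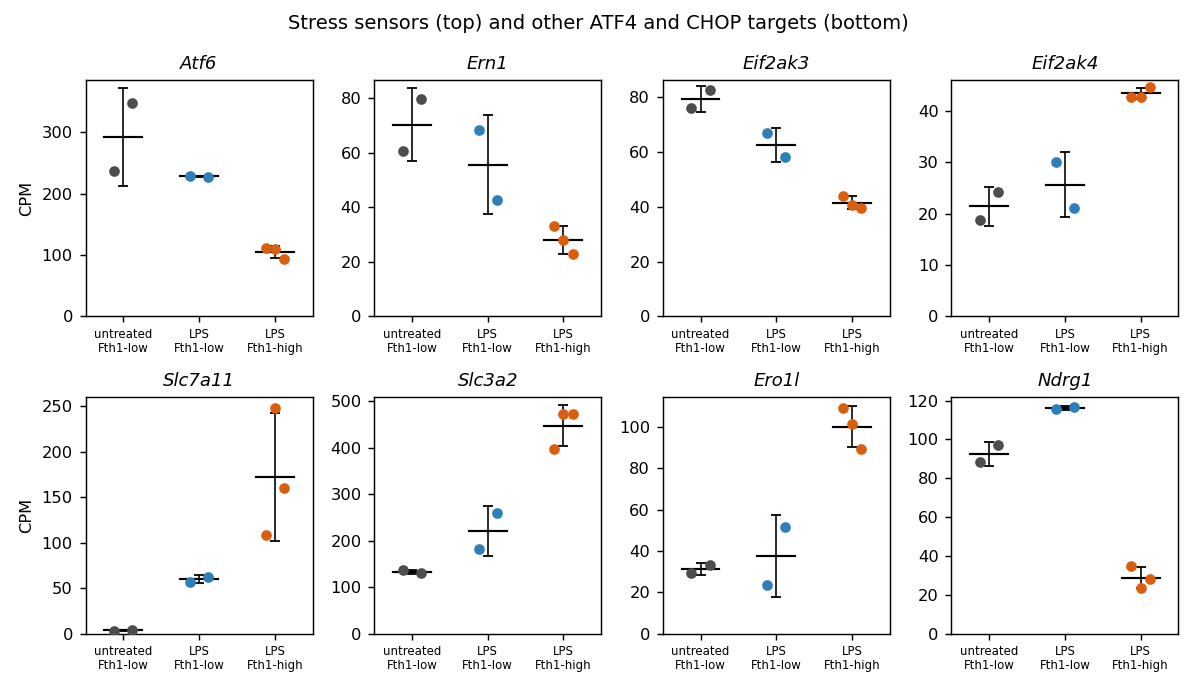
CPM of 4 stress sensor genes (top) and 4 other ATF4 and CHOP targets (bottom) by group; points are libraries, lines are group means and bars SD (n = 2, 2 and 3), with axes starting at 0. Atf6, Ern1 and Eif2ak3 are lowest and Eif2ak4, Slc7a11, Slc3a2 and Ero1l highest in the 3 LPS Fth1-high libraries.

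Other ER folding, translocation and degradation genes (38 tested) gave 6 higher and 3 lower against untreated cells (against 12.4% and 11.9% of all tested genes), led by the transport vesicle coat gene Sec24d (1.28, adjusted p = 0.0027), the BiP partner Sdf2l1 (1.08, 0.0055) and the retrotranslocation gene Derl2 (0.88, 0.0086). Their median difference was 0.05, against 0.61 for the 7 chaperones above. Without either untreated library 2 rose and none fell, and without either LPS Fth1-low library 5 fell. Without LPS Fth1-high replicate 2 or 3 the number that rose was 3, and without the latter 1 fell. Sdf2l1 was not called without untreated replicate 1 and Derl2 without untreated replicate 2, and neither was called at equal depth. Between the LPS groups none was called, where 8.25% of all tested genes were. At an unadjusted p under 0.05, 4 were higher and 3 lower, against 1485 and 1470 of all 13665 tested genes.

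Of 15 other folate and one-carbon enzyme genes 3 rose and none fell against untreated cells: Gldc, Mthfd1 (1.07, adjusted p = 0.041) and Gart (0.62, adjusted p = 0.041). Among all tested genes 12.4% rose and 11.9% fell there. The DESeq2 Wald test called neither Gldc nor Gart. The Gart call was also lost without a count filter, with the replicate block and at equal depth (log2 difference 0.19 to 0.67 over 14 alternatives). Gldc had 0 counts in both untreated libraries and 14, 23 and 7 with LPS in Fth1-high cells. The count was 1 without untreated replicate 1 or LPS Fth1-high replicate 1 or 3, and 0 without untreated replicate 2 or LPS Fth1-high replicate 2. Of 12 cytosolic heat shock genes, which belong to another stress response, 1 rose (Hsph1, 1.05, adjusted p = 0.041) and 1 fell (Dnajb1, -0.64, adjusted p = 0.034); Dnajb1 was not called without either untreated or any 1 LPS Fth1-high library, and the number that rose was 0 without untreated replicate 1 or any 1 LPS Fth1-high library and 2 without any of the other 3.

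Ordered by CPM per kilobase of the longest principal transcript, a level that can be set between genes, Atf3 was the most abundant of the 34 in untreated cells (469 CPM per kb), followed by Hspa5 (209), Hsp90b1 (196), Calr (174), Xbp1 (143), Ppp1r15a (137) and Atf4 (135). In LPS Fth1-high cells the order was led by Calr (382 CPM per kb), Hsp90b1 (299), Atf3 (269.6) and Hspa5 (256), of which Atf3 had the widest SD (53.9) and was not apart from its neighbours in that order beyond it. At the other end, Chac1 (0.0763), Trib3 (0.438), Asns (0.528) and Phgdh (0.538) were under 1 CPM per kb in untreated cells. The largest relative rises among the 34 genes were thus of transcripts that stayed rare.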

How the data were processed

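Poly(A) RNA of 7 sorted lung libraries (25 ng input, stranded mRNA kit, 15 PCR cycles, paired reads of 58 bases, per the labels' protocols) was deposited by the authors as 1 table of raw counts per gene. The submitters' processing notes name DRAGEN, DESeq2 and mm10; their roles and versions, the annotation and the strand setting were not in the sources used here. 6880 genes had no count. Counts were fitted in edgeR 4.0.16 (limma 3.58.1, R 4.3.3; filterByExpr, TMM, robust quasi-likelihood, 1 model of the 3 groups, 4 residual degrees of freedom, biological coefficient of variation 0.301), two-sided, with Benjamini-Hochberg adjustment over 13665 genes. Differences are log2 with SE, which was derived as the absolute difference divided by the square root of the test's F statistic. CPM uses TMM-scaled totals. Alternatives were DESeq2 1.42.0 (size factors; Wald test), other filters, 2-group fits, a replicate block, equal depth, and each library left out.

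On simulated data of 13665 genes, 100 genes were changed by a log2 difference of 1 and 100 by 2. For LPS Fth1-high against untreated, 15% and 70% of these were recovered. The shares were 13% and 68% against LPS Fth1-low, and 8% and 55% for LPS Fth1-low against untreated. Unchanged genes made up 7.61%, 18.2% and 13.7% of calls in the same order. In the sorted libraries 24.3%, 8.25% and 3.62% of genes were called, and recovery with that many changed genes was not tested. The members, the other gene lists and the motifs were chosen with earlier results of these data known. At most 3 called genes of each other list are named, by smallest adjusted p. Positions and transcript lengths are from GENCODE (GRCm38; 96.2% of symbols matched), and promoters from RefSeq; the promoter sequence of 1 gene is not reported here. Exons of 3 members overlap another gene on the same strand and those of 10 on the opposite strand.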

Additional observations from a re-analysis of the deposited data

How the results depend on the processing

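The fall of Psat1 and Herpud1 and the rise of Asns, Aars and Pdia4 in LPS Fth1-high against untreated cells kept their call in every alternative that tested them. Of 33 genes, LPS Fth1-high against untreated gave 8 that rose and 5 that fell; leaving out 1 library gave 4 to 11 and 2 to 7, and the cause of these moves was not tested. Against LPS Fth1-low the numbers of 1 and 1 became 4 and 3 with the DESeq2 Wald test, 2 and 2 without a count filter, 4 and 3 with at least 1 CPM in every library and 3 and 2 at equal depth; DESeq2 size factors gave 3 that fell, only the 2 groups compared gave 0 that rose, and single libraries left out gave 0 to 6 and 0 to 3. For LPS Fth1-low against untreated, 0 became 1 higher and 1 lower with the DESeq2 Wald test and 1 higher at equal depth, and 0 to 0 higher and 0 to 1 lower over single libraries left out. Whether same-numbered libraries share mice was not given in the sources used here. Deviations from the group means correlated at -0.0373 to 0.290 in same-numbered libraries and at -0.290 to 0.276 in other pairs. Between the LPS groups the same-numbered values were 0.271 and 0.0880. In a group of 2 the deviations mirror each other, so these values cannot decide whether libraries were paired. The replicate block gave 2 that fell between the LPS groups and 3 that fell against untreated cells (Atf4 and Atf3 not called), with 8 that rose there. Depth limits Trib3, Phgdh and Asns in the LPS Fth1-low group, where 1 count of the shallow library is 1.67 CPM; Trib3 without LPS Fth1-low replicate 2 is a fitted value against 0 counts and no bound.

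Differences that were not called changed sign in 74 gene and setting pairs, 17 between the LPS groups, 45 in LPS Fth1-low against untreated and 12 in LPS Fth1-high against untreated. Over single libraries left out, the log2 differences of such genes ranged as follows. Between the groups LPS Fth1-high and LPS Fth1-low, these were Atf4 -0.0026 to 0.25, Ddit3 -0.28 to 0.41, Sesn2 -0.14 to 0.28, Psph -0.17 to 0.49, Nars -0.12 to 0.77, Wars -0.042 to 0.27, Dnajb9 -0.12 to 1.27, Sel1l -0.075 to 0.0012, Hspa5 -0.25 to 0.40 and Hyou1 -0.025 to 0.87. Between the groups LPS Fth1-low and untreated Fth1-low, these were Ddit3 -0.27 to 0.49, Trib3 -6.99 to 1.17, Ppp1r15a -0.36 to 0.23, Psat1 -0.54 to 0.22, Phgdh -0.40 to 1.66, Psph -0.33 to 0.70, Mthfd2 -0.93 to 0.057, Gars -0.024 to 0.17, Iars -0.19 to 0.19, Mars -0.88 to 0.15, Nars -0.61 to 0.30, Sars -0.51 to 0.015, Tars -0.75 to 0.19, Yars -0.60 to 0.24, Eprs -0.17 to 0.46, Sel1l -0.060 to 0.18, Hspa5 -0.11 to 0.55, Hsp90b1 -0.27 to 0.49, Hyou1 -0.46 to 0.46, Calr -0.22 to 0.65, Pdia4 -0.092 to 0.71 and Pdia6 -0.53 to 0.62. Between the groups LPS Fth1-high and untreated Fth1-low, these were Ddit3 -0.066 to 0.57, Psph -0.19 to 0.69, Mthfd2 -0.19 to 0.29, Gars -0.12 to 0.091, Sars -0.038 to 0.39 and Sel1l -0.079 to 0.15. With the replicate block, LPS Fth1-high against LPS Fth1-low gave Ddit3 -0.070 and LPS Fth1-low against untreated Fth1-low gave Iars -0.013, Yars -0.070 and LPS Fth1-high against untreated Fth1-low gave Ddit3 -0.057, Mthfd2 -0.20. With equal depth, LPS Fth1-high against LPS Fth1-low gave Wars -0.066, Sel1l 0.0063 and LPS Fth1-low against untreated Fth1-low gave Ppp1r15a 0.065, Iars -0.017, Nars 0.17, Tars 0.48, Yars -0.20. With at least 1 CPM in every library, LPS Fth1-high against LPS Fth1-low gave Hspa5 -0.010 and LPS Fth1-low against untreated Fth1-low gave Ppp1r15a 0.022, Psat1 0.042. With DESeq2 size factors, LPS Fth1-low against untreated Fth1-low gave Psat1 4.9e-06. With the DESeq2 Wald test, LPS Fth1-low against untreated Fth1-low gave Psat1 0.0027. With only the 2 groups compared, LPS Fth1-low against untreated Fth1-low gave Psat1 0.020.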
